A study of Mus musculus with 15 samples.

Results

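The genes described here were *Dazl*, *Ddx4*, *Mael*, *Asz1*, *Sycp1*, *Sycp3*, *Stk31*, *Tex101* and *Tex19.1*, a named set of germline genes whose silencing outside germ cells is known to depend on DNA methylation. They were 9 of the 48709 genes counted and were chosen by name. Each of the 9 had enough reads to enter every test. DNA methylation itself was not measured in these libraries, so the name of the set states what the genes are known for.

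RNA-seq read counts were available for 15 libraries of mouse embryonic stem cells (ESCs) that lose OCT4, the transcription factor encoded by *Pou5f1* (also called *Oct4*). CreER ESCs were of mixed 129SV C57BL/6 strain and Oct4 Fl/- genotype, with 1 floxed and 1 null allele, and carried a Cre recombinase fused to the oestrogen receptor under the ubiquitous CAG promoter. 4-OHT (500 nM) activated the recombinase, with replicates 1 and 2 sequenced after 0, 12, 18, 24 and 36 h. O4AID ESCs were of 129SV strain and Oct4-/- genotype. They held a TetOFF *Oct4* transgene kept silent with doxycycline (1 µg/ml) and lived on CAG-driven *Oct4* fused to an auxin-inducible degron, together with CAG-driven Tir1. IAA (500 µM) targets that fusion protein for degradation, with 1 library sequenced after 0, 1.5, 6, 10 and 24 h. Both lines were maintained in N2B27 with 1 µM PD03, 3 µM Chiron and mLIF, which holds ESCs in the naive state. No untreated library was made at any later time, so time in culture and treatment cannot be told apart, and no source says whether the 2 CreER replicates came from separate cultures. The p-values therefore measure only the spread between these libraries, which may be technical.

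Germline genes of this kind start from CpG-rich promoters that are methylated around implantation and then stay silent in somatic tissues. They are switched on in germ cells after the genome-wide loss of methylation there. ESCs held with MEK and GSK3 inhibitors have low DNA methylation, and transcripts of several such genes are commonly found in them. Besides methylation, the PRC1.6 Polycomb complex, which contains E2F6 and MGA-MAX, and H3K9 methylation are known to restrain these genes in ESCs.

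Promoter sequences are shown first because CpG sites are what DNA methylation acts on. In 300-base RefSeq promoters (GRCm38.p6, 250 bases before to 50 after each start), the 9 genes had 10 promoters with 15 to 38 CpGs each and a median of 22.5. The median over all 32851 promoters was 7.0 and their upper quartile was 20. The ratio of observed to expected CpGs was 0.575 in *Tex19.1*, the lowest of the set, and 0.978 in *Ddx4*, the highest, against a median of 0.384 over all promoters. Each of the 10 promoters lay above that median. The median ratio of the set, 0.782, was near the upper quartile of all promoters, 0.750. The 250 bases before the start are printed for *Dazl*, *Ddx4*, *Sycp1*, *Mael* and *Tex19.1*, with every CpG in capitals. The first 4 are among the 5 genes called between the untreated lines below. *Asz1* was also called there but is not printed. *Tex19.1* was the most abundant of the set per kilobase of exon in CreER. The *Dazl* sequence is chr17:50293621-50293870, minus strand, with 20 CpGs. The *Ddx4* sequence is chr13:112652311-112652560, minus strand, with 31 CpGs. That of *Sycp1* is chr3:102936101-102936350, minus strand, with 17. That of *Mael* is chr1:166238745-166238994, minus strand, with 18. That of *Tex19.1* is chr11:121145893-121146142, plus strand, with 15.
Dazl: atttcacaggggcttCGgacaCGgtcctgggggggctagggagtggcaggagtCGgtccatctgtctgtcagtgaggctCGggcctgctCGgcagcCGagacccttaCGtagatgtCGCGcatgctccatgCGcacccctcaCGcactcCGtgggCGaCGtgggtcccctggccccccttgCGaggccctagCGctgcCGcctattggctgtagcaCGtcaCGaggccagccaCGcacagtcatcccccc
Ddx4: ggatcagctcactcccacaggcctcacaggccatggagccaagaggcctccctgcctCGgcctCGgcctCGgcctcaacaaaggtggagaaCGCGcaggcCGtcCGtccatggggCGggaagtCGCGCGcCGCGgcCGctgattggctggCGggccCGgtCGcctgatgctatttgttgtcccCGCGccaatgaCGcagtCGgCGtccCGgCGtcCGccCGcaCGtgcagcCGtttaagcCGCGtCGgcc
Sycp1: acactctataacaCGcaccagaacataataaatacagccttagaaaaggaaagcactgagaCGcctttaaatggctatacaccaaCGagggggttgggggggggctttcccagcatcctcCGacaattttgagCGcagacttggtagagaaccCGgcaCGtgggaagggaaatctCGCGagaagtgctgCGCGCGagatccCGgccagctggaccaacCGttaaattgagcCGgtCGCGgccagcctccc
Mael: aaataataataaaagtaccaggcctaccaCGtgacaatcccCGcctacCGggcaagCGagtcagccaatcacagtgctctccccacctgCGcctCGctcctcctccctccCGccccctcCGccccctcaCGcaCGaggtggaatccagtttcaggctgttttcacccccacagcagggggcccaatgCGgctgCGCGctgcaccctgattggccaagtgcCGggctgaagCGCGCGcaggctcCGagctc
Tex19.1: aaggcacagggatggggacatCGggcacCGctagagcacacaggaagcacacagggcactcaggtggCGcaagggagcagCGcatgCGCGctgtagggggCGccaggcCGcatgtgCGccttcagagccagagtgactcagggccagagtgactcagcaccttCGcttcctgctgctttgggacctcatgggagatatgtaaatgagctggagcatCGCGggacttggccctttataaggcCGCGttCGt

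Both strands of the promoters were searched for TCCCGC, the core of sites bound by E2F6, and for the E-box CACGTG, which MGA-MAX can bind. TCCCGC was found in the promoters of 5 of the 9 genes (*Ddx4*, *Mael*, *Sycp3*, *Sycp1* and *Tex19.1*). That is 5 of their 10 promoters, beside 20.0% of all promoters. The *Sycp1* match does not lie within the 250 bases before the start that are printed above. CACGTG was also found in 5 of the 9 (*Ddx4*, *Mael*, *Sycp3*, *Sycp1* and *Stk31*). That is 6 of the 10 promoters, beside 7.15% of all promoters. Those of *Stk31* overlap each other and hold the same CACGTG site, which is counted in both. In the *Ddx4* sequence the motif matches began 136 and 29 bases before the start, in that order, and did not overlap. The promoters of *Dazl*, *Asz1* and *Tex101* held neither run of letters in this window. Both motifs contain a CpG, and the promoters of the set hold more CpGs than the median promoter. The proportions over all promoters are not matched for CpG content, so enrichment of either motif was not tested. These are matches of letters, not measured binding.

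**Figure D1:**
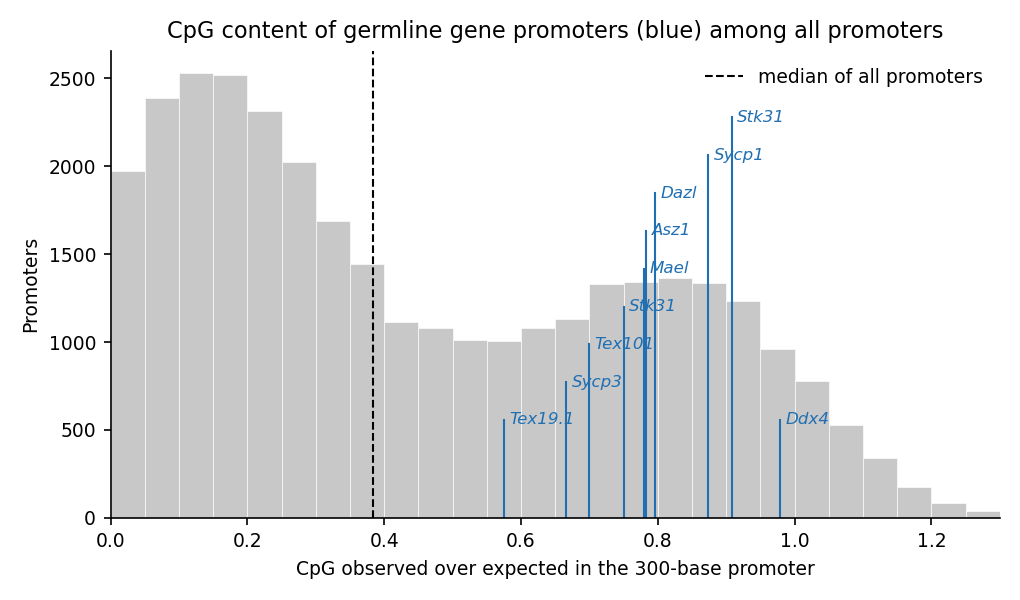
Observed over expected CpGs in 32851 RefSeq promoters of 300 bases (grey histogram, number of promoters per bin) with the 10 promoters of the 9 germline genes as blue lines (*Stk31* has 2; line height only separates the names). All 10 lie to the right of the dashed median of 0.384, from 0.575 (*Tex19.1*) to 0.978 (*Ddx4*).

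Library totals ranged from 21.7 to 30.8 M (mega) counted reads for CreER and from 40.5 to 48.7 M for O4AID. Levels are given as counts per mega-count (CPM) after TMM scaling over the 15 libraries. *Pou5f1* fell in CreER from 324 and 317 CPM at 0 h to 112 and 124 CPM at 36 h, a log2 fold change of -1.43. In O4AID, *Pou5f1* reads include the degron transgene, whose mRNA is not the target of IAA, and they stayed between 637 and 854 CPM, so they do not check the loss of the protein. The 8 naive ESC markers were detected in both lines, with summed levels of 2019 CPM in untreated CreER and 5575 CPM in untreated O4AID. The naive sum went to 1869 CPM at 36 h in CreER and to 1885 CPM at 24 h in O4AID. This sum includes *Pou5f1* itself. In CreER the mean of *Pou5f1* went from 320 CPM at 0 h to 118 CPM at 36 h, a larger fall than that of the sum. In the 24 h O4AID library, 637 CPM of the sum were *Pou5f1* reads. Summed trophectoderm markers (7 genes) went from 40.1 to 148 CPM over 36 h in CreER and from 11.4 to 25.7 CPM over 24 h in O4AID. Primitive endoderm markers (7 genes) went from 15.6 to 36.7 CPM in CreER and from 10.6 to 45.9 CPM in O4AID. The 7 fibroblast markers together stayed at or below 10.0 CPM in CreER and 5.02 CPM in O4AID.

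Within untreated cells, the 9 germline genes spanned a wide range of levels. Per kilobase of exon, *Tex19.1* was the highest in CreER (42.9 CPM per kb, mean of 2), followed by *Ddx4* (10.0), *Mael* (9.61), *Stk31* (8.96), *Sycp1* (5.07), *Dazl* (2.92), *Sycp3* (2.49), *Tex101* (0.381) and *Asz1* (0.123). The replicate ranges of *Ddx4* and *Mael*, of *Mael* and *Stk31*, and of *Dazl* and *Sycp3* overlapped, and those of the other neighbours in this order did not. In the untreated O4AID library the order was *Tex19.1* (44.6 CPM per kb), *Dazl* (43.1), *Stk31* (8.02), *Mael* (5.60), *Ddx4* (2.43), *Sycp3* (2.17), *Sycp1* (1.71), *Asz1* (0.382) and *Tex101* (0.380). The 95% Wilson intervals of *Tex19.1* and *Dazl* overlapped there, as did those of *Ddx4* and *Sycp3*, of *Sycp3* and *Sycp1*, and of *Asz1* and *Tex101*. Such intervals cover counting error only, since the reads carry no molecular identifiers. *Dazl* thus ranked sixth in one line and second in the other, while *Tex19.1* was first in both. In untreated CreER, *Tex19.1* lay above 93.0% of the genes tested between the lines and *Asz1* above 9.50%.

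**Figure D2:**
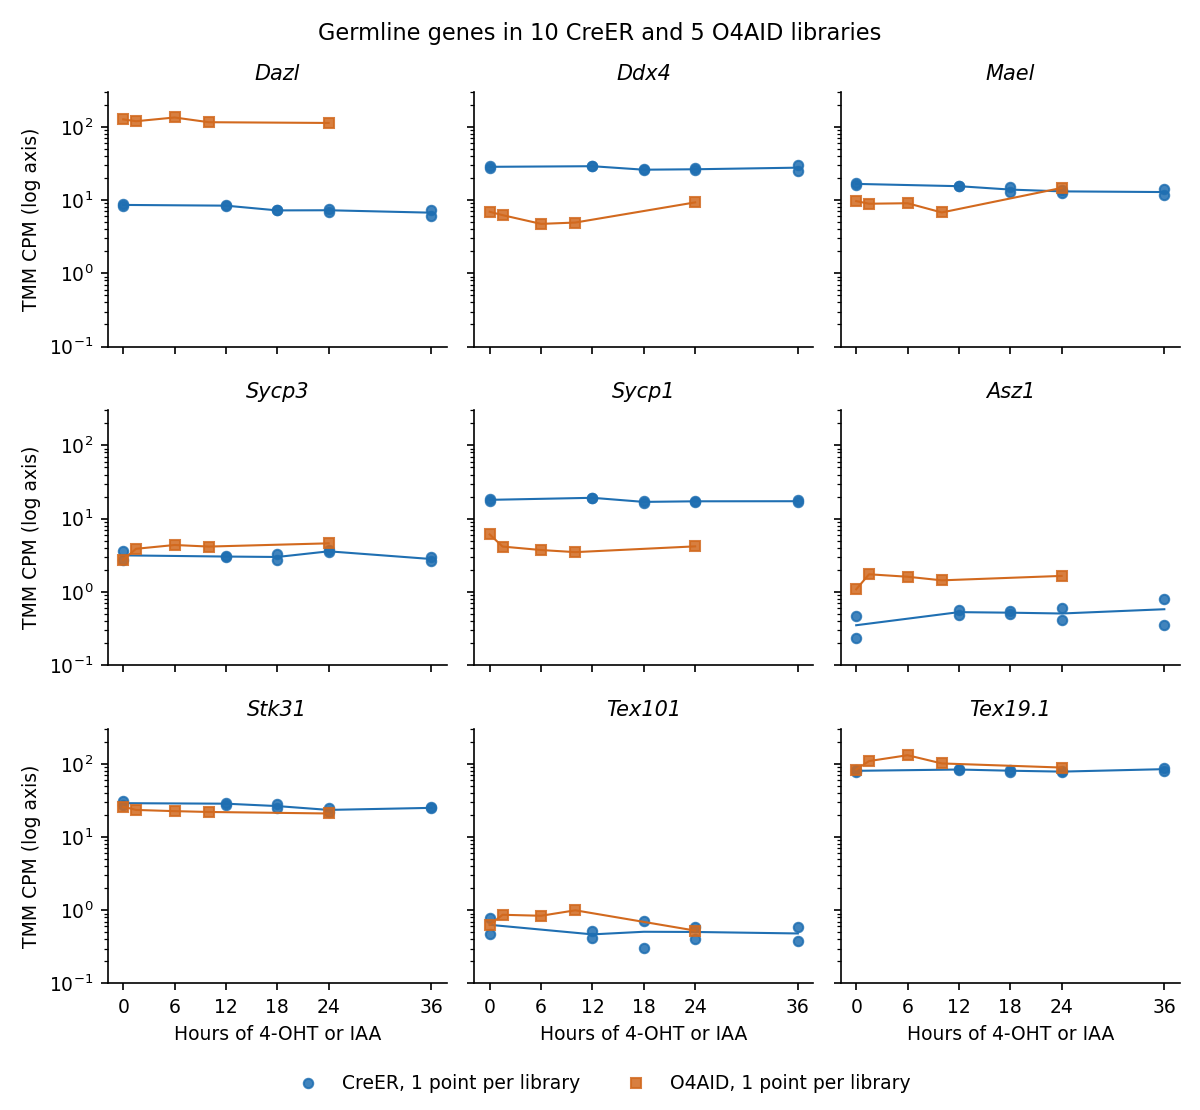
Level of each germline gene (TMM CPM, log axis) against hours of 4-OHT (CreER, blue circles, 2 libraries per time) or IAA (O4AID, orange squares, 1 library per time), with lines through the means. *Dazl*, *Ddx4*, *Sycp1* and *Asz1* have no CPM value shared by the lines, and *Dazl* is the gene with the widest gap (6.10 to 8.98 against 113 to 135 CPM).

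The untreated lines were compared first, to see how far these genes differed before any loss of OCT4. *Dazl* and *Asz1* were higher in O4AID and *Ddx4*, *Sycp1* and *Mael* were lower, and the other 4 were not called. *Stk31* was also called lower with scaling by total counts (log2 -0.35, adjusted p = 0.000523) and without replicate 1 of CreER 0 h (-0.26, adjusted p = 0.0105). The 2 higher genes stand against 38.9% of all genes tested, the 3 lower genes against 39.6%, and the 5 together against 78.6%, so a difference between the lines was no more common in the set than in the genome. The median log2 difference of the 9 was -0.16 and that of all genes was -0.06. The lone O4AID library was assumed to vary like the CreER replicates, and strain, genotype, doxycycline and depth differ with the line and cannot be told apart.

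*Dazl* encodes an RNA-binding protein that controls translation in germ cells, and lies on chromosome 17 (50279394 to 50293599, minus strand, GRCm38). It measured 8.98 and 8.21 CPM in the untreated CreER libraries (228 and 249 reads) and 127 CPM in the untreated O4AID library (5635 reads). The log2 fold change was 3.89 ± 0.08 (SE), or 14.8-fold, with an adjusted p of 9.41e-27. The 4 treated O4AID libraries held 119.6, 135, 116 and 113 CPM in order of time, so each of the 5 O4AID libraries lay above each of the 10 CreER libraries. Per kilobase of exon, *Dazl* was above 51.9% of the genes tested between the lines in untreated CreER and above 93.2% in untreated O4AID.

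*Ddx4*, *Mael* and *Asz1* encode proteins of nuage, the germ cell granule in which piRNAs are made and transposon transcripts are handled. *Ddx4* (chromosome 13, 112598333 to 112652310, minus strand), the mouse homologue of the Vasa RNA helicase, measured 29.1 and 27.9 CPM in untreated CreER and 6.93 CPM in untreated O4AID. It was thus 4.10-fold lower in O4AID (log2 -2.04 ± 0.10 SE, adjusted p = 4.88e-17), and its ranges over all times, 25.3 to 30.2 and 4.74 to 9.31 CPM, did not overlap. *Mael* (chromosome 1, 166201201 to 166238747, minus strand), needed for piRNA-guided silencing of transposons, measured 16.3 and 17.1 CPM against 9.70 CPM. Its log2 difference was -0.78 ± 0.11 (SE, adjusted p = 1.72e-07), but the ranges over all times overlapped, since the O4AID library at 24 h reached 14.7 CPM. *Asz1* (chromosome 6, 18050964 to 18109061, minus strand), a mitochondrial scaffold of nuage, rested on 6 and 14 reads in untreated CreER (0.236 and 0.462 CPM) and 48 in untreated O4AID (1.08 CPM). It was 2.99-fold higher in O4AID (log2 1.58 ± 0.41 SE, adjusted p = 0.00102), and the ranges of 0.236 to 0.804 and 1.08 to 1.73 CPM did not overlap.

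*Sycp1* and *Sycp3* encode the transverse filament and the lateral element of the synaptonemal complex, which joins homologous chromosomes in meiosis. The 2 genes differed in their behaviour between lines. *Sycp1* (chromosome 3, 102818499 to 102936100, minus strand) measured 18.7 and 17.4 CPM in untreated CreER and 6.08 CPM in untreated O4AID, 2.96-fold lower (log2 -1.56 ± 0.10 SE, adjusted p = 4.01e-14). Its CreER range of 16.2 to 19.3 CPM stood clear of the O4AID range of 3.48 to 6.08 CPM. *Sycp3* (chromosome 10, 88459569 to 88473236, plus strand) measured 3.58 and 2.71 CPM against 2.75 CPM, and was not called (log2 -0.18 ± 0.19 SE, adjusted p = 0.395). *Sycp3* shares 660 of its 1264 exon bases with *Chpt1* on the opposite strand. The kit keeps strand but the counting setting was not stated, so reads of the 2 genes may not be separated.

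*Stk31*, a germ cell protein with tudor and kinase domains (chromosome 6, 49395604 to 49469501, plus strand), measured 27.2 and 30.8 CPM in untreated CreER and 26.0 CPM in untreated O4AID (log2 -0.16 ± 0.08 SE, adjusted p = 0.0820). *Tex19.1* (chromosome 11, 121146143 to 121148319, plus strand) is known to restrain retrotransposons and is also expressed in pluripotent cells. It measured 77.4 and 83.2 CPM against 83.6 CPM (log2 0.06 ± 0.06 SE, adjusted p = 0.395), with a sign that turned to -0.13 under scaling by total counts. It has a close paralog, *Tex19.2*, with which reads could be shared. *Tex101*, a surface glycoprotein of germ cells (chromosome 7, 24668007 to 24676675, minus strand), rested on 8 to 24 reads per CreER library and 24 to 39 per O4AID library. It measured 0.472 and 0.792 CPM against 0.630 CPM, a log2 difference of -0.03 ± 0.42 (SE) that this depth could not resolve from 0.

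**Figure D3:**
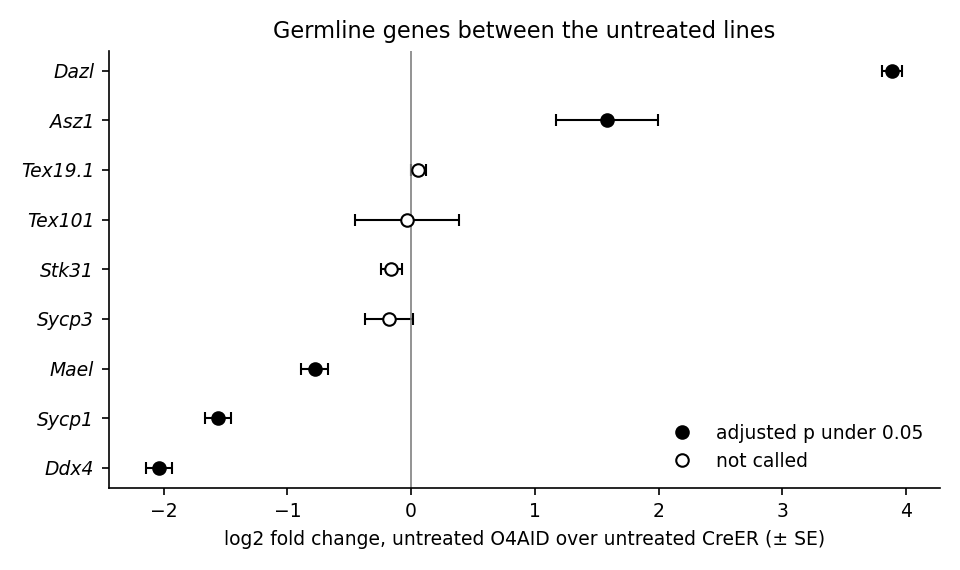
Log2 fold change of each germline gene between the untreated O4AID library (n = 1) and the untreated CreER libraries (n = 2), with the SE derived from the edgeR test as bars. Filled points are called at an adjusted p under 0.05: *Dazl* (3.89) and *Asz1* (1.58) on the right, *Mael* (-0.78), *Sycp1* (-1.56) and *Ddx4* (-2.04) on the left.

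Over all 15 libraries, 4 of the 9 genes had CreER and O4AID ranges that did not overlap, against 62.4% of all genes tested. Other germline genes also had members called in each direction between the untreated lines, where 38.9% of all genes were higher and 39.6% lower. Of 12 other piRNA and nuage genes, 6 were higher in O4AID and 6 lower. Of 17 other meiotic chromosome genes, 16 were tested, of which 7 were higher and 5 lower. Of 12 other germ cell genes, 11 were tested, of which 8 were higher and 3 lower. *Tdrd5*, a nuage protein with tudor domains, fell on the lower side with *Ddx4* (log2 -6.17 ± 0.26 SE, 11.6 against 0.158 CPM). *Gpat2*, needed for piRNA production, stood on the higher side with *Dazl* (log2 4.00 ± 0.09 SE, 4.29 against 68.7 CPM). *Brdt*, a bromodomain protein of meiotic cells, measured 1.54 against 38.8 CPM, and *Stra8*, which drives entry into meiosis, measured 6.11 against 76.6 CPM.

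The enzymes of DNA methylation differed between the untreated lines too. *Dnmt3l*, the cofactor of de novo methylation, measured 595 CPM in CreER and 2.21 CPM in O4AID (log2 -8.07 ± 0.09 SE). *Dnmt3b*, a de novo methyltransferase, was also lower in O4AID (log2 -2.55 ± 0.05 SE), and *Tet2*, which oxidises methylcytosine, was higher (log2 2.14 ± 0.05 SE). Of the 9 genes in the list of methylation writers and erasers, 4 were higher and 4 lower, against 78.6% of all genes called in either direction. The germline genes did not follow a single direction beside these values, and the part of the enzymes in the germline levels was not tested.

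The next question was how the germline genes changed as OCT4 was lost through deletion of *Pou5f1*. At 12 and 18 h after 4-OHT, edgeR called 0 of the 9 genes, against 0.395% and 8.52% of all genes. DESeq2 likewise called 0 at both times, and at an unadjusted p under 0.05 the edgeR counts were 0 and 2. At 24 h, *Mael* and *Stk31* were lower, 2 of 9 with 0 higher, against 10.6% of all genes called lower, 11% higher and 21.6% in either direction. At 36 h, *Dazl*, *Mael* and *Stk31* were lower, 3 of 9 with 0 higher, against 17.2% called lower, 19.4% higher and 36.6% in either direction. None of the 9 was called higher at any time. The median log2 fold change of the 9 was -0.02, -0.12, -0.10 and -0.13 in order of time, and the median of all genes lay within 0.013 of 0.

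*Mael* had the lowest adjusted p of the set at 36 h. Its CreER libraries held 16.3 and 17.1 CPM at 0 h, 15.4 and 15.6 at 12 h, 12.9 and 14.97 at 18 h, 12.7 and 13.7 at 24 h, and 11.8 and 14.0 at 36 h. The libraries of every later time lay below those of 0 h, but the replicates at 36 h were further apart than those at 0 h. The log2 fold change was -0.34 ± 0.09 (SE) at 24 h and -0.37 ± 0.09 at 36 h, with adjusted p of 0.00761 and 0.00249. The 36 h call was lost without replicate 1 of that time (adjusted p = 0.0993).

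*Dazl* declined within its low CreER range. It measured 8.98 and 8.21 CPM at 0 h, 8.46 and 8.35 at 12 h, 7.24 and 7.23 at 18 h, 7.61 and 6.93 at 24 h, and 7.37 and 6.10 at 36 h. From 18 h on, each library lay below both 0 h libraries. At 36 h the log2 fold change was -0.33 ± 0.12 (SE, adjusted p = 0.0273), which DESeq2 did not call (adjusted p = 0.105) and which was lost without replicate 1 of 0 h (0.131) or replicate 2 of 36 h (0.268).

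*Stk31* measured 27.2 and 30.8 CPM at 0 h, 29.4 and 27.7 at 12 h, 25.03 and 27.9 at 18 h, 24.7 and 22.3 at 24 h, and 24.6 and 25.4 at 36 h. The 24 h and 36 h libraries lay below those of 0 h. The log2 fold change was -0.30 ± 0.07 (SE, adjusted p = 0.00472) at 24 h and -0.21 ± 0.08 (adjusted p = 0.0352) at 36 h. At 36 h the call was lost with DESeq2 (adjusted p = 0.0925) and without replicate 2 of 0 h or either 36 h replicate (0.396, 0.159 and 0.0643). The 36 h calls of *Dazl* and *Stk31* were also lost with the 0 h and 36 h libraries alone (0.0594 and 0.0630). At 24 h, leaving out replicate 2 of 0 h ended both calls, with an adjusted p of 0.122 for *Stk31* and 0.0681 for *Mael*. Dropping the 24 h replicates in turn lost the *Mael* call (0.116, replicate 1 dropped) and the *Stk31* call (0.106, replicate 2 dropped).

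Between times, 3, 4, 4 and 3 of the 9 genes had libraries at 12, 18, 24 and 36 h that did not overlap those of 0 h, against 38.1%, 50.5%, 58.7% and 64.4% of all genes. The remaining 6 genes gave no call at any time in CreER. *Ddx4* stayed between 25.3 and 30.2 CPM and *Sycp1* between 16.2 and 19.3 CPM, with log2 fold changes at 36 h of -0.02 ± 0.07 and -0.05 ± 0.08 (SE). *Tex19.1* stayed between 77.4 and 88.6 CPM (log2 0.08 ± 0.05 at 36 h). *Sycp3* stayed between 2.60 and 3.70 CPM. *Asz1* and *Tex101* had 36 h values of 0.64 ± 0.46 and -0.38 ± 0.43 on the log2 scale, from at most 18 and 24 reads in a library, a depth at which a change of that size was not detectable.

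**Figure D4:**
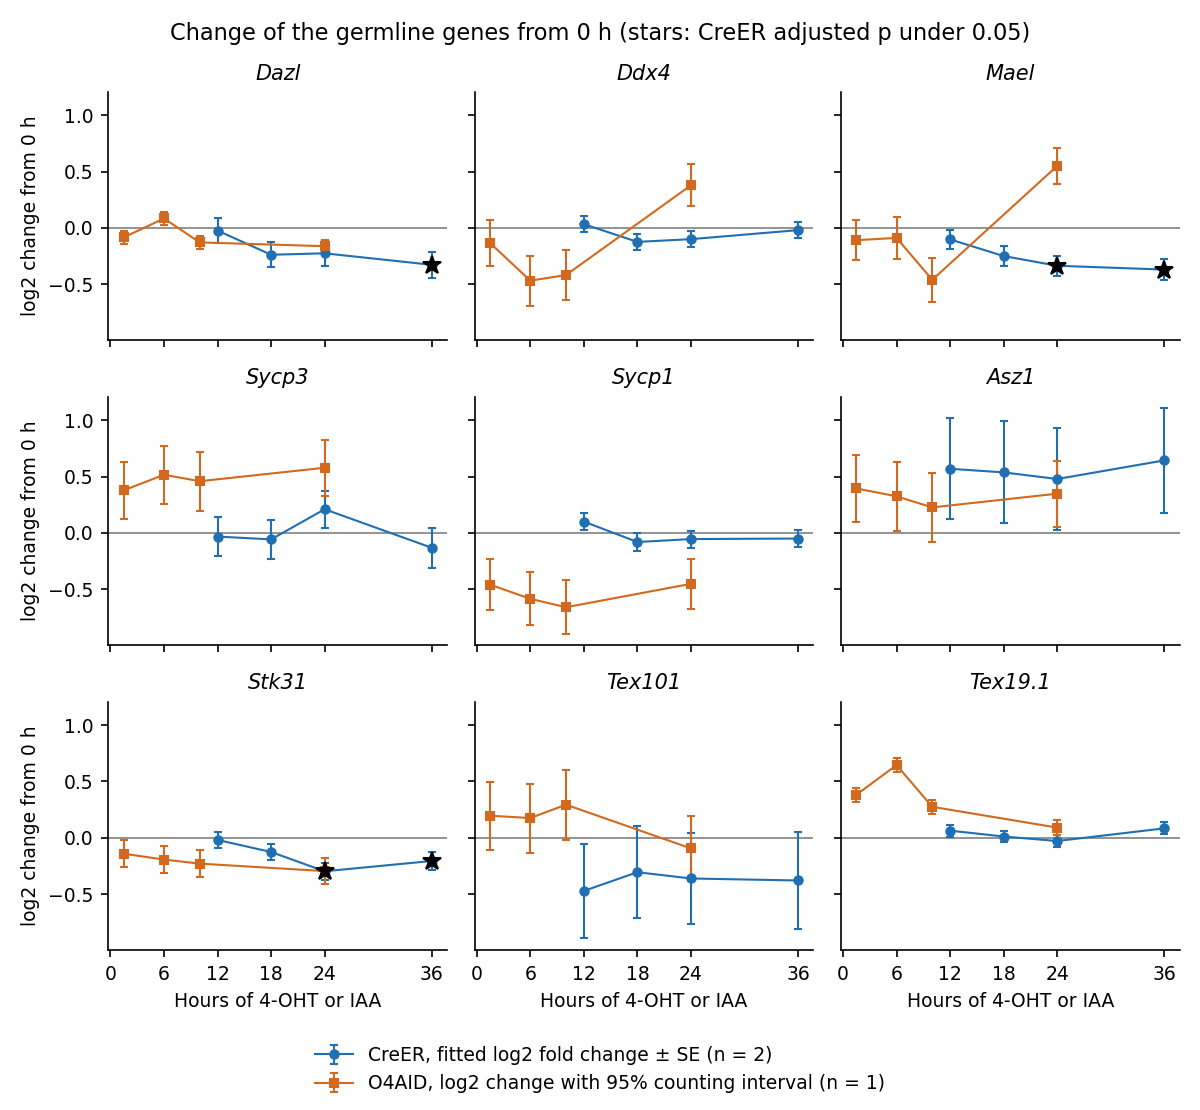
Log2 change from 0 h against hours of treatment for the 9 germline genes, as the edgeR fold change ± SE in CreER (blue, n = 2 per time) and as the log2 ratio of CPM plus 1 with its 95% counting interval in O4AID (orange, n = 1 per time). Black stars are the CreER calls, at 24 h (*Mael*, *Stk31*) and 36 h (*Dazl*, *Mael*, *Stk31*), and the orange points of *Ddx4* and *Mael* are above 0 at 24 h alone.

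Degradation of the OCT4 fusion protein was followed in O4AID with 1 library per time, so no time has a replicate check and each value compares those libraries, not the conditions. Changes are log2 ratios of CPM plus 1, a scale that understates changes of low genes, and a change was taken as past the fold at an absolute value of at least 1. None of the 9 genes passed it at 1.5, 6, 10 or 24 h (0 of 9 each), against 0.0828%, 0.916%, 2.05% and 6.65% of all genes. The trend over hours, tested with edgeR, called 0 of 9 genes against 26.1% of all genes, with 0 at an unadjusted p under 0.05 and 0 with DESeq2. Departure from a straight line counts as spread in that test.

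*Ddx4* had lower levels at 6 and 10 h than at 0 h, and *Mael* at 10 h, and both had higher ones at 24 h. *Ddx4* measured 6.93, 6.23, 4.74, 4.94 and 9.31 CPM at 0, 1.5, 6, 10 and 24 h. Its log2 change was -0.47 (95% counting interval -0.69 to -0.25) at 6 h and 0.38 (0.19 to 0.57) at 24 h. *Mael* measured 9.70, 8.93, 9.07, 6.78 and 14.7 CPM in the same order. Its log2 change was -0.088 at 6 h, with an interval that included 0 (-0.27 to 0.095). It was -0.46 (-0.65 to -0.26) at 10 h and 0.55 (0.39 to 0.71) at 24 h. The direction rests on the 24 h library: the fitted slope per 24 h was 0.55 for *Ddx4* and 0.66 for *Mael* (adjusted p = 0.231 and 0.133), and without that library it was -1.22 and -1.001.

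*Dazl* stayed high, at 127, 119.6, 135, 116 and 113 CPM, with a log2 change at 24 h of -0.16 (-0.22 to -0.11). *Tex19.1* measured 83.6, 109, 131, 101 and 89.0 CPM. It was highest at 6 h, with a log2 change of 0.64 (0.58 to 0.70), and nearer to its starting level at 24 h (0.09, 0.03 to 0.15). *Stk31* measured 26.0, 23.5, 22.6, 22.01 and 21.0 CPM, each value below the one before it, with a log2 change of -0.30 (-0.41 to -0.18) at 24 h.

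As for *Stk31* and *Tex19.1*, the 0 h level of *Sycp1*, *Sycp3* and *Asz1* lay outside the range of the 4 later libraries. For *Asz1* at 10 h the counting interval of the change included 0 (0.23, -0.082 to 0.53). The share of all genes with such a 0 h level was not computed, so it is no trait of the set. *Sycp1* measured 6.08 CPM at 0 h and 4.15, 3.72, 3.48 and 4.17 CPM afterwards. *Sycp3* measured 2.75 CPM at 0 h and 3.87, 4.35, 4.15 and 4.59 CPM afterwards. *Asz1* measured 1.08 CPM at 0 h (48 reads) and 1.73, 1.604, 1.43 and 1.65 CPM afterwards (56 to 75 reads). All of these changes share the single 0 h library. Set against the 1.5 h library in its place, the 24 h changes of *Sycp1*, *Sycp3* and *Asz1* were 0.01, 0.20 and -0.05 instead of -0.45, 0.58 and 0.35. On that reference *Tex19.1* was 0.26 at 6 h, -0.11 at 10 h and -0.29 at 24 h, so its direction turned at 10 and 24 h. The 24 h changes of *Dazl* and *Stk31* were then -0.078 and -0.15. *Tex101* stayed between 0.527 and 0.998 CPM, and its counting interval included 0 at every time.

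The 9 genes did not move as a block in either line. Over the 36 pairs of genes the median Pearson r of log2 levels was 0.14 across the 10 CreER libraries (range -0.87 to 0.79) and -0.05 across the 5 O4AID libraries (-0.96 to 0.88). These libraries share times and treatment, so the values are descriptions. The genes most like the mean standardised profile of the 9 in CreER were *Cycs* (r = 0.97), *Adh5* (0.95), *Gm6180* (0.95), *Rps3a3* (0.95) and *Polr2g* (0.95), of 13443 candidates. In O4AID they were *Med6* (1.00), *Pom121* (0.99), *Pnrc1* (0.99), *Ube3c* (0.98) and *Hsbp1* (0.98), of 13507. These are the highest values of many candidates over few libraries, so they are high by selection. In the other line, the r of the CreER genes was 0.08 (*Cycs*), 0.06 (*Adh5*), 0.86 (*Gm6180*), 0.20 (*Rps3a3*) and 0.34 (*Polr2g*). That of the O4AID genes was 0.82 (*Med6*), -0.25 (*Pom121*), -0.72 (*Pnrc1*), 0.71 (*Ube3c*) and -0.22 (*Hsbp1*).

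The other germline lists were read beside the set and beside the 19.4% of all genes called higher and 17.2% called lower at 36 h in CreER. At that time, 2 of 12 other piRNA and nuage genes were called, both lower: *Tdrd5* (log2 -0.75 ± 0.11 SE) and *Tdrd12* (-0.56 ± 0.06). Of 14 meiotic chromosome genes tested, 2 were higher and 3 lower, with *Taf7l*, a germ cell TFIID subunit, at 1.14 ± 0.13 and *Rec8*, the meiotic cohesin, at 0.51 ± 0.13. *Meioc*, which maintains meiotic prophase, was among those lower (-0.37 ± 0.07). Of 10 other germ cell genes tested, 2 were higher (*Sohlh2*, 0.44 ± 0.11, and *Stra8*, 0.32 ± 0.12) and 1 was lower. Without any 1 of the 0 h or 36 h replicates at most 1 was higher (0 without replicate 2 of 36 h), and 0 to 2 were lower. Of 7 primordial germ cell specification genes, 1 was higher and 1 lower.

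In O4AID the trend over hours called 6 of 15 meiotic chromosome genes higher and 1 lower, against 13.6% and 12.5% of all genes. It called 4 of 11 piRNA and nuage genes higher and 1 lower, and 3 of 11 other germ cell genes higher and 0 lower. Of 7 primordial germ cell specification genes it called 0 higher and 2 lower, namely *Prdm14* (slope -1.38 ± 0.23 SE), a transcription factor of germ cell specification, and *Kit* (-1.34 ± 0.18), the receptor for stem cell factor. Several of these counts rest on single libraries. Without the 24 h library, 3 meiotic chromosome, 1 piRNA and nuage and 1 other germ cell gene were higher, and without the 1.5 h library the first 2 of these counts were 3 and 1. Without the 0 h or the 6 h library, 2 piRNA and nuage genes were higher. *Stra8* rose in these libraries from 76.6 CPM at 0 h through 72.5, 99.3 and 116 to 324 CPM at 24 h, a slope of 2.18 ± 0.12 (SE) log2 per 24 h with an adjusted p of 4.10e-05. *Rec8* measured 26.5, 27.6, 34.9, 48.0 and 126 CPM (slope 2.32 ± 0.10, adjusted p = 2.27e-05). *Meioc* measured 12.4, 10.5, 12.7, 18.1 and 62.9 CPM, a slope of 2.57 ± 0.22 (adjusted p = 0.000508). *Taf7l* measured 3.31, 3.89, 5.65, 6.45 and 14.1 CPM (slope 2.03 ± 0.18, adjusted p = 0.000312). Without the 24 h library the slopes were 1.66 for *Stra8*, 2.101 for *Rec8*, 1.52 for *Meioc* and 2.35 for *Taf7l*, each still called. *Tdrd5* and *Hormad2*, a meiotic chromosome axis protein, were called higher over all times (1.75 and 0.61) but not without the 24 h library (adjusted p = 0.792 and 0.409). Neither was called without the 0 h library (0.124 and 0.0621) or the 1.5 h library (0.057 and 0.0635). Hours on a log2 scale lost both calls as well (0.0989 and 0.139). For *Tdrd5*, with 7 reads at 0 h, the call was also lost without the 6 h library (0.0637) and with DESeq2 (0.121). *Tdrd12*, a nuage helicase, fell instead (slope -1.20 ± 0.14, adjusted p = 0.00101). From the meiotic chromosome and other germ cell lists, *Sohlh2*, *Brdt*, *Ldhc*, *Zcwpw1* and *Mei1* were not called in the trend. Their slopes were 0.13, 0.15, 0.068, 0.44 and 0.72 (adjusted p = 0.336, 0.328, 0.836, 0.169 and 0.502). The difference between these lists and the 9 genes was not tested.

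**Figure D5:**
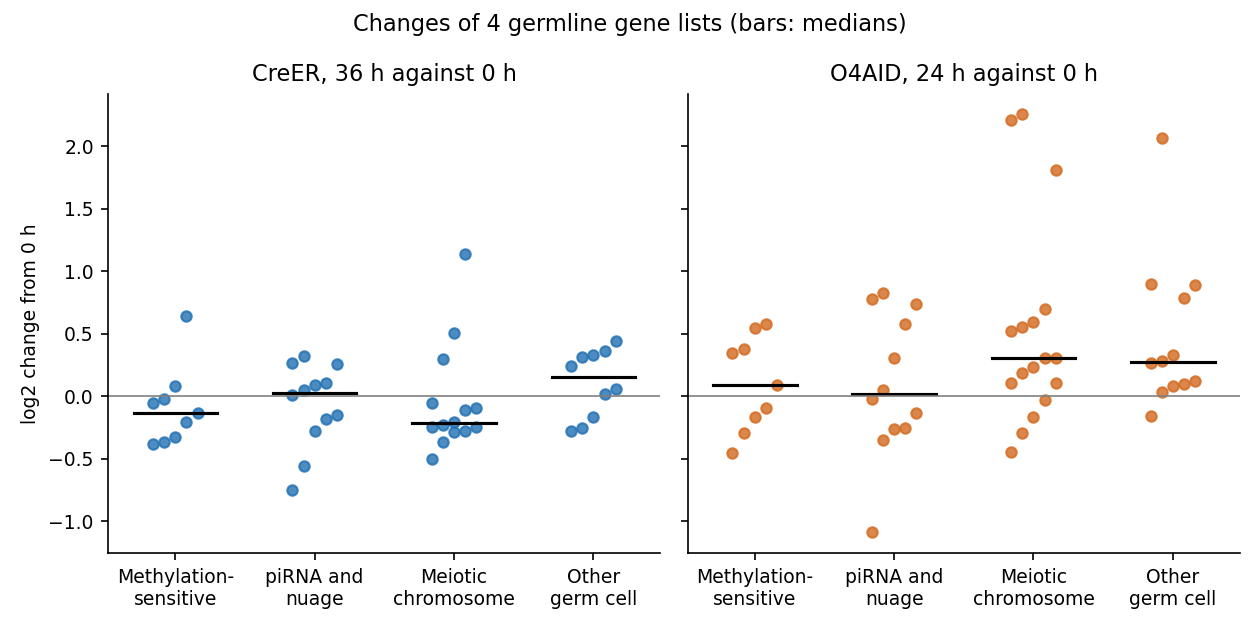
Log2 change from 0 h of single genes in the 9 methylation-sensitive germline genes and in 3 other germline lists, in CreER at 36 h (blue, edgeR fold change, genes tested) and O4AID at 24 h (orange, log2 ratio of CPM plus 1), with medians as black bars. The 9 genes lie between -0.38 and 0.64 in CreER and between -0.45 and 0.58 in O4AID, while single meiotic chromosome genes of O4AID reach 2.26.

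Most listed genes of PRC1.6, DNA methylation and H3K9 methylation were also lower in CreER at 36 h, when *Dazl*, *Mael* and *Stk31* were lower, against 17.2% of all genes called lower and 19.4% higher. Of 14 PRC1.6 genes, 8 were lower and 2 higher (0 to 3 higher with a 0 h or 36 h replicate left out, 0 when it was replicate 2 of 0 h or replicate 1 of 36 h), with *L3mbtl2* at -0.46 ± 0.04, *Hdac1* at -0.46 ± 0.07 and *Pcgf6* at -0.45 ± 0.05 (log2, SE). Of 9 DNA methylation genes, 7 were lower and 1 higher, including *Tet2* at -0.97 ± 0.04, *Dnmt3a* at -0.80 ± 0.05 and *Dnmt3l* at -0.53 ± 0.04. Of 7 H3K9 methylation genes, 6 were lower and 1 (*Suv39h1*, 0.66) was higher. No germline gene of the set was called higher beside them. In the O4AID trend, where 13.6% of all genes were higher and 12.5% lower, 5 of 14 PRC1.6 genes were lower and 0 higher. The lower count was 2 without the 0 h library and 3 without the 1.5 h library. Of 9 DNA methylation genes, 2 were higher (0 without the 1.5 h or the 24 h library) and 3 lower. Of 7 H3K9 methylation genes edgeR called 0 in that trend (1 at an unadjusted p under 0.05) and DESeq2 called 0, with a median slope of 0.13. Without the 10 h library 2 of them were lower, and without the 24 h library 1 was higher. The part of these genes, and of the naive, trophectoderm and primitive endoderm markers, in the germline values was not tested, and in these bulk libraries fewer cells with a transcript and less of it per cell cannot be told apart.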

How the data were processed

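The authors depleted ribosomal RNA, made directional libraries and, per the labels and their processing notes, used Trim Galore 0.1.4, TopHat2 2.1.0 and featureCounts 1.5.1 on GRCm38/mm10. Strand and multimapping settings are not given in the sources used here. Each deposited file used here holds 1 library as whole-number counts per gene, without normalisation by the authors. The 92 spike-in entries held 0 reads and were left out. A deposited table of TMM-normalised values and the NOISeq-sim procedure of the study, which merges or simulates replicates, were not used. No column of per-sample values was left without a sample.

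Tests used edgeR 4.0.16 quasi-likelihood fits (limma 3.58.1, R 4.3.3) with TMM factors, filterByExpr and a prior count of 0.125. The fits held all 10 CreER libraries (18969 genes), the 5 O4AID libraries with hours as a number (18114 genes, slope per 24 h, 3 residual degrees of freedom), and the CreER libraries with the untreated O4AID library (20373 genes). P-values were two-sided and adjusted by Benjamini-Hochberg over all genes tested, and a gene was called under 0.05. Each SE was derived as the absolute log2 fold change over the square root of the F statistic of its test. The fits were run on simulated data with known changes in a small part of the genes. That run checked the estimated changes, not the scaling or error rates where most genes differ, as between the lines. O4AID changes used a pseudocount of 1 CPM and 95% Wilson intervals (SciPy 1.17.1). Replicates differed by a chi-square per degree of freedom of 3.02 to 7.00, so replicates were counted separately.

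The 9 genes and all lists were chosen with earlier results of these data known. Context genes were named as up to 3 with the largest absolute fold change per list among those called at CreER 36 h or between the untreated lines. Genes most like the set were the 5 with the highest Pearson r to its mean standardised profile, among genes with a mean of at least 50 counts. Alternatives were other scalings, filters, pseudocounts, references, DESeq2 1.42.0, a replicate block and left-out libraries.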

Additional observations from a re-analysis of the deposited data

Results flagged for a closer look

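*Mael* and *Ddx4* moved in opposite directions in the lines at 24 h, and the difference was not tested, since O4AID has 1 library per time. *Mael* was higher at 24 h of IAA in O4AID (log2 change 0.55, 431 reads at 0 h and 668 at 24 h), while both CreER libraries at 24 h of 4-OHT lay below both 0 h libraries (log2 fold change -0.34). *Ddx4* was likewise higher in O4AID (log2 change 0.38, 308 and 424 reads) and lower in both CreER libraries (-0.10, not called). At 24 h, 58.7% of all genes had CreER libraries that did not overlap those of 0 h, in either direction.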

How the results depend on the processing

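The calls between the untreated lines for *Dazl*, *Asz1*, *Ddx4*, *Sycp1* and *Mael* kept their direction and their side of the threshold under RLE and total-count scaling, no filter, DESeq2, the 3 untreated libraries alone, all 15 libraries in the fit, and without either CreER 0 h replicate. Scaling by total counts moved the median of all genes between the lines from -0.06 to -0.24 and the proportion of called genes with a higher level in O4AID from 49.6% to 41.9%. In CreER at 36 h that scaling moved the proportion called higher from 53.1% to 36.0%, at 24 h from 51.0% to 61.3% and at 12 h from 65.3% to 36.9%. In the O4AID trend it moved from 52.0% to 62.6%. The count of germline genes called lower at 36 h in CreER was 1 in place of 3 with DESeq2 and 1 with the compared libraries alone, and leaving out a replicate gave 1 to 2. At 24 h it was 0 to 2 with a replicate left out. Between the lines, 3 to 4 were lower with a replicate left out. One germline gene (*Mael*, slope 0.72, adjusted p = 0.0195) was called higher in the O4AID trend without the 10 h library, so that count ranged from 0 to 1 over left-out libraries.

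Over all genes, calls at 12 h were 75, and 222 without a filter. DESeq2 called 956 at 18 h in place of 1616 and 2571 at 24 h in place of 4089. With hours on a log2 scale the trend called 2252 in place of 4725. Leaving out a replicate gave 8 to 218 calls at 12 h, 582 to 2006 at 18 h and 2343 to 3703 at 24 h, and leaving out a library gave 2627 to 4804 in the trend. Genes past the fold in O4AID at 1.5, 6, 10 and 24 h numbered 15, 166, 371 and 1204, against 391, 817, 1215 and 2627 with a pseudocount of 0.1 CPM and 7, 63, 151 and 505 with 5 CPM. Against the 1.5 h library, 93 passed it at 6 h. None of the 9 germline genes (0 at each time) passed it under any of these settings. The cause of the moved counts was not tested.

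Several uncalled changes turned sign. With total counts, *Ddx4* at 12 h was -0.0058 and *Tex19.1* was -0.0045 at 18 h, -0.0013 at 36 h and -0.13 between the lines. *Tex19.1* was 0.12 in the trend on log2 hours, and *Tex101* was 0.035 between the lines with DESeq2. With a replicate left out, the log2 ranges at 12 h were -0.085 to 0.034 for *Dazl*, -0.11 to 0.079 for *Stk31* and -0.23 to 0.17 for *Sycp3*. At 18 h they were -0.26 to 0.14 for *Sycp3*, -1.07 to 0.15 for *Tex101* and -0.043 to 0.071 for *Tex19.1*. At 24 h they were -0.66 to 0.086 for *Tex101* and -0.084 to 0.029 for *Tex19.1*. At 36 h they were -0.020 to 1.24 for *Asz1*, -0.16 to 0.094 for *Ddx4*, -0.33 to 0.066 for *Sycp3* and -0.75 to 0.070 for *Tex101*. In the trend they were -0.026 to 0.47 for *Asz1*, -1.22 to 0.82 for *Ddx4*, -1.001 to 0.85 for *Mael*, -1.63 to 0.085 for *Sycp1*, -0.78 to 1.19 for *Tex101* and -0.43 to 0.63 for *Tex19.1*. Between the lines they were -0.39 to 0.0068 for *Sycp3*, -0.34 to 0.40 for *Tex101* and -0.0090 to 0.10 for *Tex19.1*.

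The replicate numbers did not pair the CreER libraries: over 10 pairs of times, deviations of same-numbered libraries correlated between -0.04 and 0.08, none over 0.1. With the replicate block the calls over all genes were 89, 1677, 4139 and 6999 in order of time, and the germline genes called lower were 0, 0, 2 and 3 as without it. In O4AID no paired analysis was possible because each time has 1 library. Depth limits *Asz1* and *Tex101*, with at most 18 and 24 reads in a CreER library.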
